A study of Mus musculus with 2 samples.

Results

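Mir107, Mir103-2 and Mir103-1, microRNA (miRNA) genes of the mouse, were followed in small RNA libraries of the hippocampus. They were chosen by name in the annotation, and each lies in an intron of a pantothenate kinase gene (Pank1, Pank2 and Pank3). They are 3 of the 2202 miRNA genes in the count tables. The difference between the libraries was part of that choice, so it is given below as a description, with no test.

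The series held 2 libraries of total RNA, 1 per labelled biological replicate, in 1 group. Both came from hippocampal layer tissue of female B6CASTF1/J mice aged 36 days. B6CASTF1/J mice are a first-generation cross of the strains C57BL/6J and CAST/EiJ. No treatment, age or genotype was contrasted. The labels give the samples separate biosample entries and the same donor entry, so it is open from the labels whether they are separate animals, and part of their spread may be technical.

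A miRNA is cut from a hairpin by Drosha and Dicer, which leaves a 5p and a 3p arm, and the arm loaded into Argonaute represses messenger RNAs that pair with its seed, bases 2 to 8. The miR-103 and miR-107 family is known for acting on Dicer itself and on caveolin-1 in insulin signalling, and miR-107 has been studied in Alzheimer's disease brain. Pantothenate kinases, the enzymes of the host genes, start the synthesis of coenzyme A from vitamin B5.

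The mature sequences are shown first because they differ by single bases, which bears on what a short read can tell apart. They are from RefSeq (GRCm38.p6), 5′ to 3′, and capitals mark the seed. All 3 genes matched the RefSeq table.

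miR-107-3p: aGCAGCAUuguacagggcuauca
miR-103-3p: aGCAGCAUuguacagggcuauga
miR-107-5p: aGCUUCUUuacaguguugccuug
miR-103-2-5p: aGCUUCUUuacagugcugccuug
miR-103-1-5p: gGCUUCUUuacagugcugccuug

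The 3p arms of Mir103-1 and Mir103-2 are the same sequence. Relative to it the 3p arm of Mir107 carries G22C, the miR-103 base first and counted from 1 at the 5′ end. Relative to miR-103-2-5p, the 5p arm of Mir107 carries C16U and that of Mir103-1 carries A1G. The 3p seed GCAGCAU was found in these 3 entries alone among the mature sequences of the RefSeq table, and so was the 5p seed GCUUCUU.

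The hairpins around these arms show where the genes diverge, and capitals mark the 5p arm and then the 3p arm.

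Mir107: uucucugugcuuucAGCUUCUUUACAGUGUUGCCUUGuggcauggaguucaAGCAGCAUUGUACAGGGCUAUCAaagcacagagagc
Mir103-2: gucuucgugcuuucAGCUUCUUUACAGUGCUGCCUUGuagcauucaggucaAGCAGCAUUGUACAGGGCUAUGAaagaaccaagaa
Mir103-1: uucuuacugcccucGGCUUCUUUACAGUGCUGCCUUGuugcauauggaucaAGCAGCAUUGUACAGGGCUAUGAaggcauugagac

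Hairpin identity was 83.9% between Mir103-2 and Mir107, 80.5% between Mir103-1 and Mir107 and 80.2% between Mir103-1 and Mir103-2. The pair with the same 3p arm was therefore no more alike over the whole hairpin than either was to Mir107. The predicted minimum free energy of folding was -41.2 kcal/mol for Mir107, -35.8 kcal/mol for Mir103-1 and -31.8 kcal/mol for Mir103-2. In each predicted fold 19 or 20 of the 23 bases of an arm were paired.

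The 3 hairpins also hold the same place, intron 5, in the host transcripts tagged as principal in the annotation. Some other transcripts differ. The hairpin is in intron 4 of Pank1-204 and in intron 2 of Pank2-203, there 13788 bases after the upstream exon. The places that follow are those in the principal transcripts. Mir107 (ENSMUSG00000065594.1) lies at chr19:34820687-34820773 on the minus strand, in intron 5 of Pank1, 326 bases after the upstream exon. Mir103-2 (ENSMUSG00000065563.1) lies at chr2:131288052-131288137 on the plus strand, in intron 5 of Pank2, 454 bases after the upstream exon. Mir103-1 (ENSMUSG00000065553.1) lies at chr11:35782396-35782481 on the plus strand, in intron 5 of Pank3, 688 bases after the upstream exon. Coordinates are those of mm10 (GRCm38), and each hairpin is on the strand of its host.

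The host transcripts tagged as principal in the annotation have 7 exons each, and exons 2 to 6 have the same lengths in all 3 genes (353, 254, 177, 124 and 126 bases). The intron itself differs in length, with 7282 bases in Pank1, 5801 in Pank2 and 1740 in Pank3. The hairpin was intronic in 3 of 3 annotated Pank1 transcripts that span it, 7 of 7 of Pank2 and 1 of 1 of Pank3. No further miRNA gene is annotated within these hosts, and Pank4, the other gene of the family, holds 0. The nearest other miRNA gene is 70074 bases from Mir107, 247654 from Mir103-2 and 165471 from Mir103-1.

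**Figure D1:**
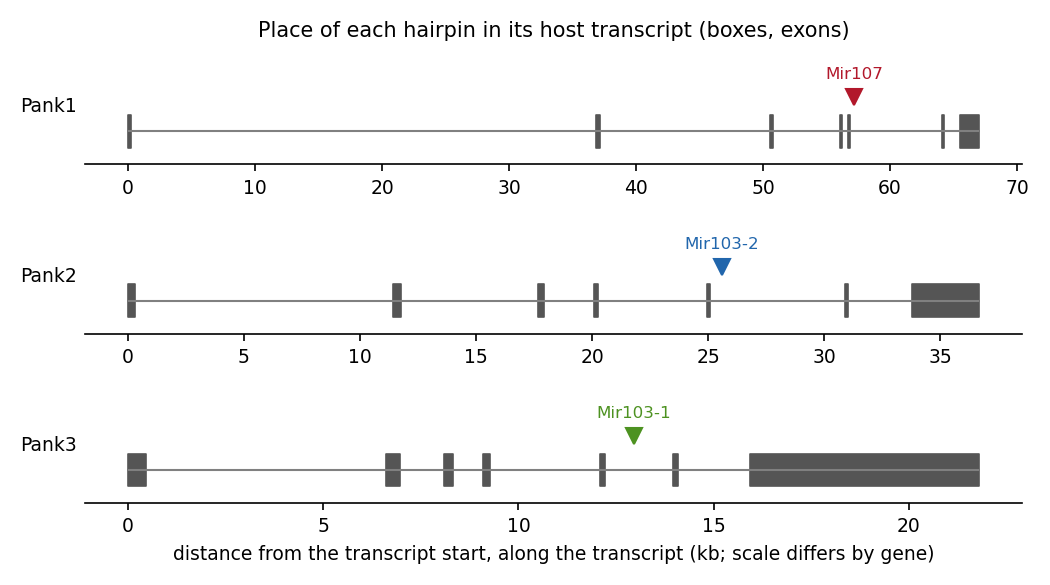
Place of Mir107, Mir103-2 and Mir103-1 in the principal transcripts of Pank1, Pank2 and Pank3, in kb from the transcript start (scale differs by gene; boxes are exons, the triangle is the hairpin). Each hairpin lies in intron 5, nearer to the upstream exon than to the downstream one.

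Whether a read can be assigned to 1 of these genes depends on its arm and length. Every stretch of 18 to 25 bases starting within 2 bases of an annotated arm start was searched for exact matches in all 2202 annotated hairpins, on both strands. From the annotated start, 3p reads of 18 to 21 bases occurred in all 3 hairpins. A miR-107-3p read became unique at 22 bases, the first that reach the base that differs. A miR-103-3p read at its annotated length of 23 bases occurred in 2 hairpins and became unique only at 25.

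For the 3p arm, 20 of the 40 stretches tried for Mir107 occurred in a single hairpin, against 6 of 40 for each miR-103 gene. For the 5p arm it was 40 of 40 for Mir107 and 29 of 40 for each of the others. No stretch tried occurred in a hairpin outside the 3 genes. The rest of the genome was not searched. The count tables hold reads with several places in a row of their own, outside the gene rows. The gene rows do not record arm or read length, so which stretches made up the counts of the 3 genes was not tested.

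**Figure D2:**
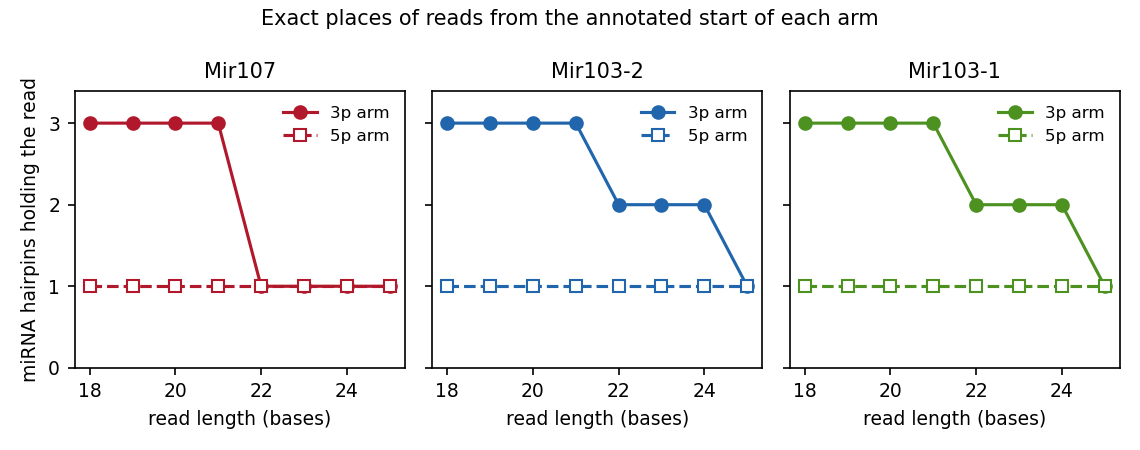
Number of annotated miRNA hairpins that hold a read exactly (vertical axis) against read length in bases, for reads from the annotated start of the 3p arm (filled circles) and 5p arm (open squares) of each gene. The 3p line reaches 1 hairpin at 22 bases for Mir107 and at 25 bases for both miR-103 genes, and the 5p line is at 1 throughout.

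The libraries held 2928141 and 3644157 sense reads on miRNA genes in replicates 1 and 2, which were 30.5% and 34.7% of all reads in the tables. Levels are given as counts per 1000000 of these reads (CPM). A gene with no read may still have up to 3 counts, which are 1.02 CPM (replicate 1) and 0.823 CPM (replicate 2). Such limits, like every interval here, cover counting error alone. Of 14 genes on a list of neuronal miRNAs, 10 had at least 10 reads in each library. Mir124a-1, Mir124a-2, Mir124a-3 and Mir9-2 did not.

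Mir107 was by far the most counted of the 3 genes. It had 17257 sense reads in replicate 1 (5894 CPM) and 4144 in replicate 2 (1137 CPM), a mean of 3515 ± 3363 CPM (SD, n = 2). It ranked 35 of all miRNA genes in replicate 1 and 89 in replicate 2. Its SD was nearly as large as its mean, so these libraries place its level only within a wide range.

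The miR-103 genes had few assigned reads. Mir103-2 had 139 reads in replicate 1 (47.5 CPM) and 46 in replicate 2 (12.6 CPM), a mean of 30.0 ± 24.6 CPM (SD, n = 2). Mir103-1 had 29 reads in replicate 1 (9.90 CPM) and 4 in replicate 2 (1.10 CPM), a mean of 5.50 ± 6.23 CPM (SD, n = 2). In replicate 2 Mir103-1 was thus just above the limit for a count of 0, and it missed a minimum of 10 reads in each library that the other two passed. Antisense reads were 0 in both libraries for all 3 genes, and the counts without strand equalled the sense counts.

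The order Mir107, Mir103-2, Mir103-1 held in both libraries, and the values of neighbouring genes in that order did not overlap. Mir107 stood 124-fold above Mir103-2 in replicate 1 and 90.1-fold in replicate 2. Mir103-2 stood 4.79-fold above Mir103-1 in replicate 1 and 11.5-fold in replicate 2, where the lower value rests on 4 reads. The hairpins are 86 or 87 bases long, so length does not enter these ratios. Mir107 had more unique stretches than the miR-103 genes, which had equal numbers of them. From the annotated start, a miR-103-3p read of 23 bases occurs in 2 hairpins, whereas a miR-107-3p read is unique from 22 bases. The part of these differences in the ratios was not tested. The order is one of assigned reads, not of the miRNAs in the tissue.

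Together the 3 genes took up 0.595% of the assigned reads of replicate 1 and 0.115% of those of replicate 2. Exact Clopper-Pearson intervals at 95% ran from 0.586% to 0.604% for the first share and from 0.112% to 0.119% for the second. Mir107 made up 99.04% and 98.8% of these sums, so the summed value follows Mir107 almost alone.

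**Figure D3:**
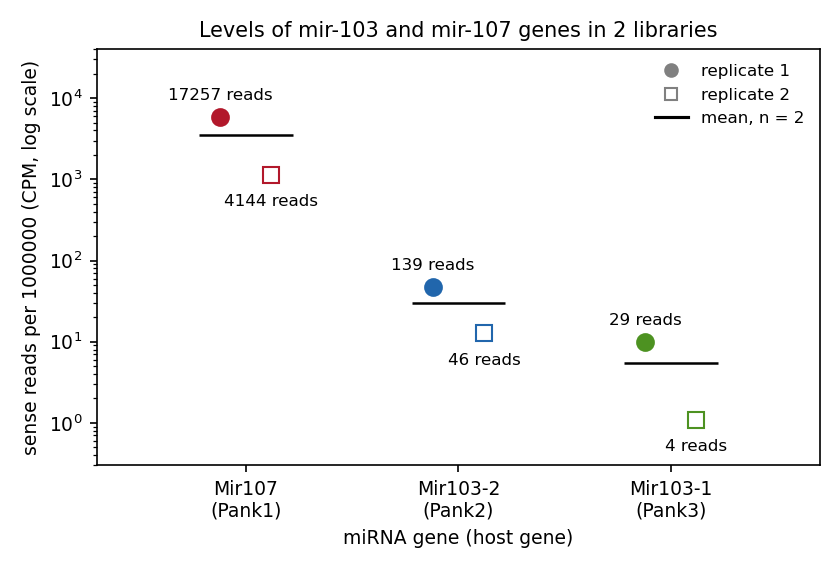
Sense reads per 1000000 assigned reads (CPM, log axis) of Mir107, Mir103-2 and Mir103-1 in replicate 1 (filled circles) and replicate 2 (open squares), with the raw read count beside each point and the mean of both as a bar. All 3 genes are higher in replicate 1, and no gene's values overlap those of the next.

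All 3 genes were higher in replicate 1, each by more than 2-fold. Of the 399 genes whose mean count was at least 10, 27 (6.77%) were at least 2-fold higher in replicate 1 and 42 (10.5%) in replicate 2. Since the ratio was used in choosing the genes, nothing is read from their count against this share. Each side is a single library, so the ratios compare these libraries and no condition.

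Mir107 was 5.18-fold higher in replicate 1 (exact binomial 95% interval of the read ratio 5.01 to 5.36). Mir103-2 was 3.76-fold higher (2.68 to 5.37). Mir103-1 was 9.02-fold higher, with a wide interval of 3.17 to 35.3. The 3 intervals overlap one another. Among the 399 genes, ordered from the largest ratio toward replicate 1, Mir103-1 was at place 2, Mir107 at place 3 and Mir103-2 at place 6.

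**Figure D4:**
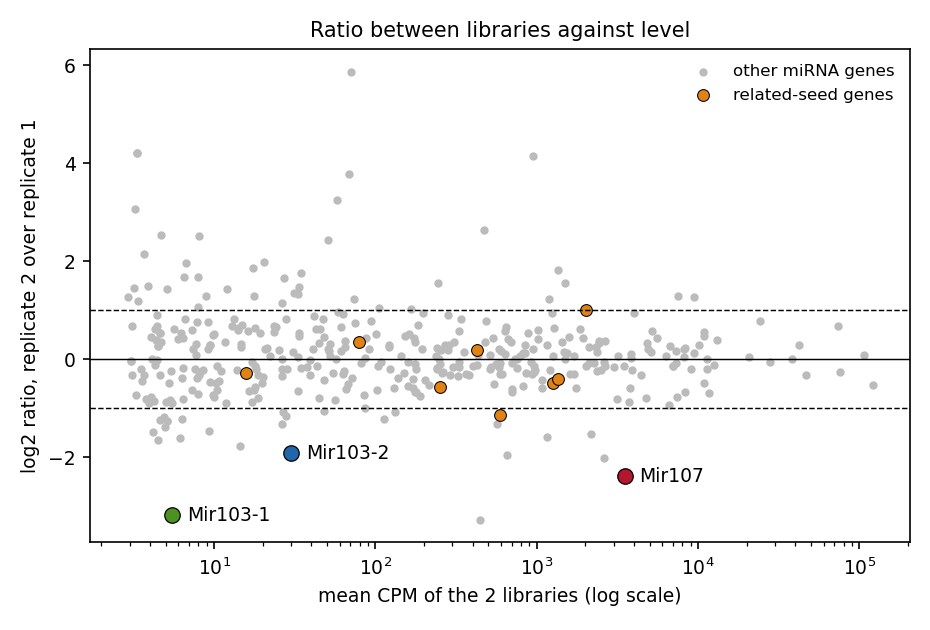
Log2 ratio of CPM in replicate 2 over replicate 1 against mean CPM (log axis) for 398 miRNA genes whose mean count was at least 10, with reads in both libraries; dashed lines mark 2-fold. The 3 genes lie at -2.37, -1.91 and -3.17 (Mir107, Mir103-2 and Mir103-1), and 8 genes of related miRNAs (orange) lie between -1.15 and 1.00.

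The same share was taken over narrower sets of genes. Of 192 genes in sense introns of protein-coding genes, 15 (7.81%) were at least 2-fold higher in replicate 1. The 3 genes here are among those 15, as they are among the 27 of all 399. Of 86 genes whose hairpin shares 20 bases with another, 9 (10.5%) were, and the 3 genes here are among those 9. Of 313 genes whose hairpin shares none, 18 (5.75%) were. The 3 genes, chosen partly by this ratio, raise the shares of the sets that hold them. Nothing is therefore read from the differences between these shares.

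The genes ranked beside Mir107 by level did not show its ratio. Mir22, next above it, was at 4832 CPM in replicate 1 and 2645 CPM in replicate 2, and Mir7b, next below, at 3635 and 3302 CPM. Beside Mir103-2, Mir3057 was at 29.0 and 32.4 CPM and Mir582 at 30.1 and 26.3 CPM. Beside Mir103-1, Mir450b was at 7.17 and 3.84 CPM and Mir7059 at 5.81 and 4.94 CPM. Among the 2 genes above and the 2 below each of the 3, Mir193a had the largest ratio toward replicate 1, at 2.23-fold, and Mir218-1 the largest toward replicate 2, at 44.7 CPM against 17.4 CPM.

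The genes nearest to Mir107 in log2 ratio, over 2 libraries and among 295 genes whose mean count was at least 50, were the following. Mir298, of the imprinted Gnas region, was nearest at 4155 CPM in replicate 1 and 1031 CPM in replicate 2 (4.03-fold). Mir451a, known from red blood cells, followed at 1039 and 270.02 CPM (3.85-fold), and then Mir103-2. Mir29c was at 1747 and 581 CPM (3.005-fold), and Mir219a-2, known from oligodendrocytes, at 3229 and 1127 CPM (2.86-fold). In that order of ratios Mir31 (801 and 82.6 CPM) stood just before Mir107 and Mir298 just after it, while Mir103-2 stood between Mir451a and Mir29c. With a pair of libraries such likeness is a single number per gene.

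Marker lists of several cell types differed between the libraries as well. The counts of members that follow stand beside 6.77% of all 399 genes at least 2-fold higher in replicate 1 and 10.5% in replicate 2. The erythroid list summed to 1176 CPM in replicate 1 and 340 CPM in replicate 2, with 1 of 3 measured genes at least 2-fold higher in replicate 1 and Mir451b at 0. The astrocyte list summed to 18266 and 12678 CPM (3 of 7 at least 2-fold higher in replicate 1, none of its genes at 0), led by Mir29a. The oligodendrocyte list summed to 5352 and 2536 CPM (1 of 3, with Mir219b at 0). The endothelial and mural list summed to 19436 and 15579 CPM (0 of 3, with Mir126b at 0). Mir126a (14516 and 8969 CPM) carried that sum, while the median log2 ratio of replicate 2 to replicate 1 over the 3 measured genes was 0.22, toward replicate 2.

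Other lists had the higher sum in replicate 2. The neuron list summed to 37509 CPM in replicate 1 and 42592 CPM in replicate 2, with 1 of 10 measured genes at least 2-fold higher in replicate 2. That gene was Mir128-1, with a mean of 7474 CPM and a log2 ratio of replicate 2 to replicate 1 of 1.30. The most abundant gene of the list, Mir132, went the other way (12153 and 10636 CPM), as did Mir138-1 (-0.79) and Mir138-2 (-0.81). The median log2 ratio of the 10 was 0.36. Mir124a-1, Mir124a-2, Mir124a-3 and Mir9-2 were below a mean count of 10, so the neuron sums hold almost nothing of them. The microglia and leukocyte list summed to 1589 and 1881 CPM (1 of 5). Its higher sum in replicate 2 rested on its leading gene, Mir150 (814 CPM in replicate 1 and 1230 CPM in replicate 2). Mir146 (log2 ratio -0.31) and Mir155 (-0.32) were higher in replicate 1. Mir142 (0.17) and Mir223 (4.21) were higher in replicate 2. Mir223, the 1 gene past 2-fold, had a mean of only 3.33 CPM over both libraries. The choroid plexus and ciliated cell list summed to 1147 and 2661 CPM (2 of 4, with Mir449b at 0), led by Mir204. Mir204 was at 593 CPM in replicate 1 and 2101 CPM in replicate 2, and Mir34b had a log2 ratio of 1.99. Mir34c was near level (0.08) and Mir449a was higher in replicate 1 (-0.62). The epithelial and sensory list summed to 58.7 and 366 CPM (4 of 6), led by Mir182. Reads with several places were 38.9% of all reads in replicate 1 and 45.8% in replicate 2, and unplaced reads 26.8% and 14.7%. The part of cell makeup and of read placement in the ratios of Mir107, Mir103-2 and Mir103-1 was not tested. In bulk tissue, fewer cells of a type and less RNA per cell cannot be told apart.

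Bases 1 to 7 of the 3p arms, AGCAGCA, equal bases 2 to 8 of the miR-15 and miR-16 family, which is known for restraining the cell cycle and is often set beside miR-103 and miR-107. Some of its sequences are shown for that offset, with the shared bases in capitals.

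miR-15a-5p: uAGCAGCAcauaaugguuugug
miR-16-5p: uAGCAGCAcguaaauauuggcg
miR-195a-5p: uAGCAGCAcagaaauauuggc
miR-497a-5p: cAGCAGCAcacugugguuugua

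Among RefSeq entries, 11 genes carry this heptamer at bases 2 to 8. A list of 11 names covers 8 of them and adds Mir503 (5p seed AGCAGCG), Mir497b and Mir497a. It had 10 rows in the tables, since Mir497a matched no gene name, and 8 reached a mean count of 10. Mir195b and Mir497b had 0 sense reads, as did Mir6342, Mir6353 and Mir6419, which carry the heptamer but are not on the list.

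The ratios of these relatives ran in both directions. Of the 8, 5 were higher in replicate 1 and 3 in replicate 2, and 1 passed 2-fold toward replicate 1, against the background of 6.77%. Their median log2 ratio of replicate 2 to replicate 1 was -0.35, beside 0.03 over all 399 genes. Their summed level was 5959 CPM in replicate 1 and 6017 CPM in replicate 2, close to the 5951 CPM of the 3 genes in replicate 1 and above their 1151 CPM in replicate 2.

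Neighbouring genes of the list differed in direction in 3 pairs, but not in the pair of Mir322 and Mir503. Mir15a was at 815 CPM in replicate 1 and 368 CPM in replicate 2 (2.21-fold, 95% interval 2.07 to 2.37), while Mir16-1, of the same cluster, was at 398 and 457 CPM. In an intron of Smc4, Mir15b was at 298 and 203 CPM and Mir16-2 at 69.7 and 88.6 CPM. Mir16-1 and Mir16-2 encode the same miR-16-5p, and where their reads become unique was not searched. Mir497 was at 1549 and 1165 CPM, whereas Mir195a, of the same cluster, was at 1338 and 2671 CPM. Mir322 was at 1473 and 1049 CPM, and Mir503, of the same cluster, at 17.4 and 14.3 CPM, so both were higher in replicate 1. In each of the other 3 pairs the miR-15 or miR-497 gene was higher in replicate 1 and the miR-16 or miR-195 gene in replicate 2. That pattern was seen in these values after the fact and was not tested.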

How the data were processed

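The deposited tables hold whole-number read counts per miRNA gene, not normalized, 1 table per library. They are on assembly mm10 per the labels and GENCODE M21 per the notes deposited with them. Neither aligner nor counter is given in the sources used here. The value columns carry no header and were read as counts without strand, sense and antisense, in that order. The second was taken as sense since it held far more reads than the third. On miRNA genes the first held fewer reads than the second, 2702776 against 2928141 in replicate 1. In replicate 2 it held 3383436 against 3644157. The reading of the first column was not tested. The 4 rows that name no gene were left out of library totals. They held 69.5% of reads in replicate 1 and 65.3% in replicate 2.

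The members and all lists were chosen with earlier results of these data known. All 2202 identifiers matched GENCODE M21, which gave positions. Mature and hairpin sequences came from RefSeq (GRCm38.p6). Sense counts were divided by their total to give CPM, with no pseudocount in ratios and no filter but a mean count of at least 10. With 1 group no differential test was made, and intervals are exact binomial at 95%. Tested on simulated counts with counting noise only, 94.5% of intervals held the true ratio (399 genes). The intervals assume that same noise, so this checks the calculation and not the spread between libraries. Genes named by rule were the neighbours in level and ratio, the related miRNAs and the leading gene of each marker list (neuron, astrocyte, oligodendrocyte, microglia and leukocyte, endothelial and mural, erythroid, choroid plexus and ciliated, epithelial and sensory). Further members of the marker lists are named to show the spread within a list. These were picked after the data were seen. Alternatives were TMM scaling (edgeR 4.0.16), DESeq2 1.42.0 size factors, totals without the most abundant gene, counts without strand, a pseudocount of 1 CPM, other filters and leaving out a replicate. Folds were predicted with RNAfold 2.7.2, and hairpins aligned with Biopython 1.88 (R 4.3.3, Python 3.11.15, scipy 1.17.1, numpy 2.4.6, pandas 2.3.3, matplotlib 3.10.9).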

Additional observations from a re-analysis of the deposited data

How the results depend on the processing

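The 3 genes stayed higher in replicate 1 under all 7 alternatives tried for each ratio. These alternatives could hardly reverse ratios of this size, so nothing is drawn from the kept direction. The factors for replicates 1 and 2 were 0.988 and 1.012 (TMM) and 0.998 and 1.002 (DESeq2). Counts without strand equalled the sense counts of the 3 genes. The log2 ratio of replicate 2 to replicate 1 ran from -2.54 to -2.36 for Mir107, from -2.02 to -1.80 for Mir103-2 and from -3.45 to -2.38 for Mir103-1. The share of reads held by the 3 genes was 0.355% of assigned reads on average and 0.111% of all reads in the tables, since the second total includes reads on no gene. For Mir107, whose interval is narrow, the ratio went to -2.44 when the most abundant gene was left out of the totals and to -2.54 after subtracting the median of the 50 genes nearest in GC content. The subtractions of the medians of genes alike in GC content or in level were chosen after the data were seen. The share of genes at least 2-fold higher in replicate 1 rose to 13.0% of 577 genes with no filter beyond 1 read in each library, where genes with few reads enter.

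Each mean level rests on both libraries, and with n = 2 leaving one out is no check of stability. Without replicate 1 it is the value of replicate 2, and the reverse, so Mir107 ranges from 1137 to 5894 CPM, Mir103-2 from 12.6 to 47.5 CPM and Mir103-1 from 1.10 to 9.90 CPM. Depth limits Mir103-1, with 4 reads in replicate 2. No paired analysis was possible because the series has 1 group.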
